A study of Mus musculus with 2 samples.

Results

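Interferon-stimulated genes are the genes a cell switches on when an interferon reaches its receptor, and their transcripts were followed here through the cell classes of healthy and chronically injured mouse liver. A list of 35 such genes was named, and 33 of them were on the gene lists of both libraries, out of 30406 genes that the libraries shared by Ensembl identifier. Mx1 was on the healthy list alone, and Mx2 is not analysed here. For each cell class the UMIs (unique molecular identifiers, each marking 1 captured transcript) of the 33 members were summed and divided by all UMIs of that class, which gives a level in counts-per-million units (CPM).

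The study profiled liver cells by droplet RNA sequencing with 10x Genomics 3′ chemistry, in 1 library from healthy mice and 1 library from mice given carbon tetrachloride (CCl4), a hepatotoxin that causes fibrosis on repeated dosing. All mice carried Col1a2CreER:Rosa26tdTomato on a C57BL/6 background, a tamoxifen-inducible Cre under the promoter of a collagen gene that marks collagen-expressing cells with a red fluorescent protein. The mice of the tracing and fibrosis experiments were 8 to 10 weeks old, and the injured group received intraperitoneal injections of 2.5 µL/g of 10% CCl4 in corn oil, 2 per week for 12 weeks. Cells were freed from the perfused livers with pronase and collagenase and collected on a Nycodenz gradient, and leukocytes carrying CD45 were removed with magnetic beads, so the leukocytes described below are those that passed this step. How many mice went into each library is not given in the sources used here.

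Type I and type III interferons signal through receptor-bound JAK1 and TYK2 kinases to a complex that holds STAT2 and IRF9 and binds the interferon-stimulated response element (ISRE) in target promoters. Interferon-γ, made mainly by T and NK cells, acts on promoters through the gamma-activated site (GAS). The induced proteins block viral RNA and protein synthesis, sense nucleic acids, trim peptides for MHC class I, and in part feed back on the pathway itself.

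The ISRE can be read directly in many of the members' promoters. RefSeq promoters (GRCm38.p6, 250 bases before to 50 bases after each annotated start) were matched by symbol for 26 of the 33 members, 30 promoters in all. Oas2, Usp18, Ifi27, Dhx58, Rtp4, Zbp1 and Parp14 had no entry. The ISRE was searched on both strands as GAAA, any 2 bases, GAAA, and was in 14 of 30 member promoters (46.7%) and in 3.44% of 32851 promoters of the same length. The palindromic GAS, searched as TTC, any 3 bases, GAA, was in 8 of 30 (26.7%), against 8.3% of all promoters. The 6 promoters printed here are all from members with an ISRE match, so they do not stand for the whole list. Psmb8, a member named often below, had no match and is not printed. Each is given 5′ to 3′ on the gene's strand with the ISRE match in capitals. Isg15 lies at chr4:156200769-156201068 on the minus strand, Ifit1 at chr19:34640639-34640938 on the plus strand, Ifit3 at chr19:34583279-34583578 on the plus strand, Rsad2 at chr12:26456403-26456702 on the minus strand, Bst2 at chr8:71537423-71537722 on the minus strand and Gbp2 at chr3:142620413-142620712 on the plus strand.
Isg15: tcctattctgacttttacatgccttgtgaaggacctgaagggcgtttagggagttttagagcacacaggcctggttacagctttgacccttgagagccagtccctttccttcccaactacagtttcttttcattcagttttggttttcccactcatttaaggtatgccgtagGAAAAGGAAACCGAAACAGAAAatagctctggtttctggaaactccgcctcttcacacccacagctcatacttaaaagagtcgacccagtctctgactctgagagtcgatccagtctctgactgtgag
Ifit1: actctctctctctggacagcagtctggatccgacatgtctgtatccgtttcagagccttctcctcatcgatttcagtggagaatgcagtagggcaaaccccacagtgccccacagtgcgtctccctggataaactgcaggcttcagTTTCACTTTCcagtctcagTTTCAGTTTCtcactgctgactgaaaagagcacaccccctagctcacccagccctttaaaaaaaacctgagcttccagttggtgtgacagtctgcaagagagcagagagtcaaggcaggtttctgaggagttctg
Ifit3: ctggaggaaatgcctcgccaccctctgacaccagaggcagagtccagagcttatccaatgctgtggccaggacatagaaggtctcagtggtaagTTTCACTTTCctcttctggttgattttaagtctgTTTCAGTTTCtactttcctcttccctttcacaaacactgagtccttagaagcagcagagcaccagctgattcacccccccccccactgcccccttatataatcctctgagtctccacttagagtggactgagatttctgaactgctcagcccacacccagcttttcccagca
Rsad2: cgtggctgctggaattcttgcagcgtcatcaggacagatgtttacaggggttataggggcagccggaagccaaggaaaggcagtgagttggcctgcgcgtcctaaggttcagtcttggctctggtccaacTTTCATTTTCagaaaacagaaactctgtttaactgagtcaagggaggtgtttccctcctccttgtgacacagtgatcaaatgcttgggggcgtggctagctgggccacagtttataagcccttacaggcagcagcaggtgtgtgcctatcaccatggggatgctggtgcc
Bst2: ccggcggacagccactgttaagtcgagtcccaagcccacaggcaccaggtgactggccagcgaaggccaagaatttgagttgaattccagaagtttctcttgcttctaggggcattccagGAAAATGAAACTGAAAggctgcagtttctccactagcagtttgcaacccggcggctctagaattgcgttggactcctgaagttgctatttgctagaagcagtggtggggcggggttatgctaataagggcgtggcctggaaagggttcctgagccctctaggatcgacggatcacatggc
Gbp2: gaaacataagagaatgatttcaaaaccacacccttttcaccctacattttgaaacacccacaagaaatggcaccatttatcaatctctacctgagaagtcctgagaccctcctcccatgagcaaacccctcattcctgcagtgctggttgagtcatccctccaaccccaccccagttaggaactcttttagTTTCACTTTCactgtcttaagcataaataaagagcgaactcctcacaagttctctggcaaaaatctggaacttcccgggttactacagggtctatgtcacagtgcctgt

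Isg15 held 3 overlapping matches, from base -78 to base -57 relative to its start, Ifit1 held 2 and Ifit3 held 2, and Bst2 carried 2 matches and 1 GAS match. Rsad2 and Gbp2 held 1 ISRE match each. The other 12 of the 26 members, Ifi35, Ifi44, Ifit2, Irf1, Irf7, Irf9, Oasl2, Psmb8, Psmb9, Tap1, Trim25 and Xaf1, held no ISRE match in this window, which says only that these letters were not there.

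Filtering kept 5602 cells of the healthy library, at a median depth of 6798 UMIs, and 7314 of the CCl4 library, at 11947. Of 27 clusters, found without any member or pathway gene, 22 were named from marker lists, and each named class had all of its list detected except the B and plasma cells, in which Jchain was at 0. A population, meaning a class in 1 library, was described where it held at least 50 cells, which gave 13 populations. Because each condition had 1 library, no test between conditions was possible, differences between libraries compare those libraries, and every bracketed 95% interval covers counting error only. The libraries had been processed with different Cell Ranger versions and gene lists, and 10 cell barcodes occurred in both. RNA free in the droplets was not removed, and its part in low levels was not tested.

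The members took 317263 UMIs over all kept cells. Plasmacytoid dendritic cells of the CCl4 library, the professional producers of type I interferon, had the highest summed level at 6220 CPM [5974, 6473] in 62 cells. Healthy endothelial cells followed at 3798 CPM [3771, 3825] in 3544 cells. Healthy mesothelial cells, which cover the organ surface, stood at 3650 CPM [3589, 3710] in 237 cells. The intervals of these 3 populations did not overlap. Their order depended on 1 member, Bst2. Without it healthy mesothelial cells led at 3445 CPM, ahead of healthy endothelial cells at 2561 CPM and plasmacytoid dendritic cells at 2414 CPM. With every cell weighing the same, healthy endothelial and healthy mesothelial cells were not separated, at 3623 and 3624 CPM. With 10 principal components in place of 30 for clustering no plasmacytoid dendritic class was found.

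Below them came the macrophages and monocytes of the CCl4 library with 2835 CPM [2735, 2937]. Healthy cholangiocytes, the cells of the bile ducts, had 2403 CPM [2381, 2426] and CCl4 endothelial cells 2329 CPM [2284, 2376]. T and NK cells had 2216 CPM [2081, 2358], and the collagen-producing mesenchymal cells of the injured liver had 2137 CPM [2123, 2150]. The T and NK interval overlapped those of the CCl4 endothelial and mesenchymal cells, so these neighbours were not separated.

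Hepatocytes were low in both libraries. They had 1235 CPM [1194, 1278] in the healthy library and 1745 CPM [1630, 1865] in the CCl4 library, where mesothelial cells at 1695 CPM [1675, 1715] could not be told from them. Neutrophils had 1471 CPM [1330, 1622]. B and plasma cells were lowest at 1160 CPM [1023, 1310], an interval that overlapped that of healthy hepatocytes. With 10 principal components the B and plasma class stood at 4369 CPM and was not the lowest.

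**Figure D1:**
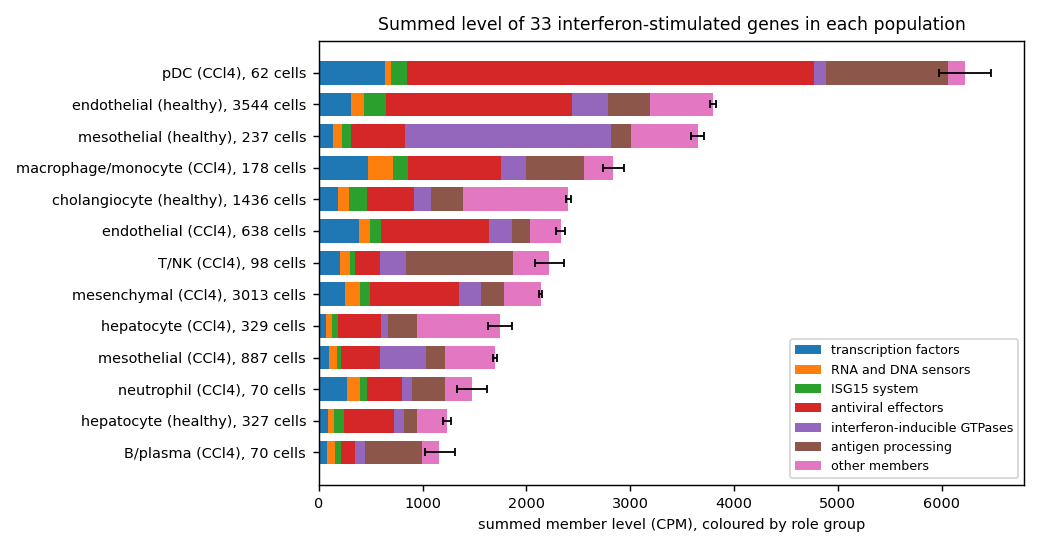
Summed level of the 33 members in each population of at least 50 cells (horizontal axis, CPM; bars start at 0), split by role group in colour. Plasmacytoid dendritic cells reach 6220 CPM with most of it in antiviral effectors, and healthy mesothelial cells stand out by the GTPase part of their bar.

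Most cells of each class carried member transcripts. With each cell of at least 2000 UMIs thinned to 2000 UMIs, the share of cells with 1 or more member UMIs ran from 87.6% [82.2, 91.8] in healthy hepatocytes to 100% [94.2, 100] in plasmacytoid dendritic cells, and without thinning from 69.6% in the shallow CCl4 hepatocytes to 100%. The thinning left out 563 of 3544 healthy endothelial cells and 274 of 329 CCl4 hepatocytes. Among healthy endothelial cells of that depth the summed member level of a single cell had a median of 3306 CPM, and 5% of the cells were above 7514 CPM.

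The sum was carried by different members in different classes. The 3 most counted members, Bst2, Ifi27 and Psmb8, gave 40.5% of all member UMIs and the 10 most counted gave 64.9%. UMIs were counted once per transcript at its 3′ end, so levels were not divided by gene length, and levels of different genes are set side by side on the CPM scale with that limit.

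Antiviral effectors made up 63.1% of the member UMIs of plasmacytoid dendritic cells (3922 CPM) and 47.0% of those of healthy endothelial cells (1786 CPM). Bst2, or tetherin, which holds budding virus particles at the cell surface, was the effector with the most UMIs. Its level was 3806 CPM [3615, 4005] in plasmacytoid dendritic cells, a class named without it. Healthy endothelial cells had 1237 CPM of Bst2, CCl4 endothelial cells 641 CPM, mesenchymal cells 419 CPM, macrophages and monocytes 369 CPM, and hepatocytes 300 CPM in the healthy and 351 CPM in the CCl4 library. In the other 6 populations it lay between 40.4 and 205 CPM. Rtp4, an interferon-induced transmembrane protein, had 138 CPM in healthy endothelial and 104 CPM in mesenchymal cells. In plasmacytoid dendritic cells it had 2.57 CPM, under the 7.72 CPM that 3 UMIs give there. High Bst2 thus did not mean a high level of every effector.

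Oasl2, of the family that senses double-stranded RNA, was highest in mesothelial cells, at 171 CPM in the healthy and 162 CPM in the CCl4 library. Its lowest level was 1.81 CPM, in healthy hepatocytes. Ifit1, which binds viral RNA ends, ran from 2.57 CPM (1 UMI) in plasmacytoid dendritic cells to 61.7 CPM in mesenchymal cells, with 61.0 CPM in healthy hepatocytes. Ifit3, its partner, was highest in mesenchymal cells at 111 CPM and lowest in CCl4 mesothelial cells at 2.40 CPM. Reads of Ifit3 and its near-identical copy Ifit3b, and of Oas1a and its neighbours in the Oas1 cluster, may have been split in counting, so these 2 levels are uncertain. Oas2, a synthetase that activates RNase L, had its highest level in macrophages and monocytes at 50.3 CPM and was at or below 1.04 CPM in every healthy population.

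Interferon-inducible GTPases, which attack the vacuoles of intracellular pathogens, made up 54.3% of the member UMIs of healthy mesothelial cells (1981 CPM). That came from Gbp2, a guanylate-binding protein, at 1629 CPM [1589, 1670]. CCl4 mesothelial cells had 251 CPM of Gbp2 [243, 259], macrophages and monocytes 69.9 CPM, healthy endothelial cells 50.3 CPM, and the remaining 9 populations between 1.81 and 40.4 CPM. Gbp2 was thus a mesothelial transcript in both libraries, at unequal levels. Gbp3 was also highest in healthy mesothelial cells (114 CPM). Gbp7 was spread more evenly, from 8.12 CPM in CCl4 hepatocytes to 149 CPM in T and NK cells. Guanylate-binding proteins share long stretches of sequence, and reads may have been split between copies such as Gbp2 and Gbp2b.

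Antigen processing members, the inducible proteasome subunits Psmb8 and Psmb9 and the peptide transporter Tap1, made up 47.3% of the member UMIs of B and plasma cells and 46.2% of those of T and NK cells. Psmb8 had 795 CPM in plasmacytoid dendritic cells, 746 CPM in T and NK cells, 410 CPM in B and plasma cells and 336 CPM in macrophages and monocytes. In the other 9 populations it lay between 70.9 and 215 CPM. Psmb9 followed the same order at its top, with 322 CPM in plasmacytoid dendritic cells and 212 CPM in T and NK cells, and was lowest in hepatocytes of the healthy library at 38.5 CPM. Neutrophils, with 136 CPM of Psmb8, and B and plasma cells, with 75.8 CPM of Psmb9, were not among the highest for those members. Tap1 lay between 61.8 and 66.8 CPM in T and NK, B and plasma, plasmacytoid dendritic and healthy endothelial cells and in macrophages and monocytes.

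Ifi27, a mitochondrial and nuclear-envelope protein, was highest in cholangiocytes and CCl4 hepatocytes. Cholangiocytes had 864 CPM [851, 878] and CCl4 hepatocytes 686 CPM [615, 763]. Mesothelial cells had 468 CPM in the healthy and 363 CPM in the CCl4 library, healthy endothelial cells 293 CPM, healthy hepatocytes 226 CPM, and plasmacytoid dendritic cells the lowest level, 36.0 CPM. Xaf1, a pro-apoptotic protein, was highest in healthy endothelial cells at 98.9 CPM and lowest in healthy hepatocytes at 12 CPM.

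Among the transcription factors, Irf7, which amplifies type I interferon transcription, was highest in macrophages and monocytes at 320.0 CPM and in plasmacytoid dendritic cells at 283 CPM. It lay between 8.92 and 68.1 CPM in the other populations. Irf1, a target of interferon-γ, was highest in CCl4 endothelial cells at 254 CPM and in plasmacytoid dendritic cells at 247 CPM, and lowest in CCl4 hepatocytes at 14.2 CPM. Irf9 and Stat2, the partners in the ISRE-binding complex, ran from 8.12 to 69.8 CPM and from 8.12 to 48.8 CPM, both lowest in CCl4 hepatocytes and highest in healthy endothelial cells. Both lows rested on 4 UMIs. Irf9 in plasmacytoid dendritic cells, at 69.5 CPM [45.8, 101], was not separated from its highest level.

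The sensors of viral RNA and DNA were low throughout. Ifih1 peaked in macrophages and monocytes at 76.4 CPM, Ddx58 in healthy endothelial cells at 64.8 CPM, Zbp1 in macrophages and monocytes at 61.5 CPM and Dhx58 there at 40.1 CPM. Macrophages and monocytes, with 238 CPM over the 4 sensors, were the population with the most of this group.

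Isg15, a ubiquitin-like protein conjugated to newly made proteins, was higher in the healthy classes than in most CCl4 classes. It had 112 CPM [107, 116] in healthy endothelial cells, 107 CPM [103, 112] in cholangiocytes, 58.7 CPM [51.3, 66.9] in healthy mesothelial cells and 38.5 CPM [31.5, 46.5] in healthy hepatocytes. In the CCl4 library it had 37.9 CPM [36.1, 39.7] in mesenchymal cells, 25.7 CPM in plasmacytoid dendritic cells, 22.1 CPM in neutrophils and 16.8 CPM in macrophages and monocytes. The CCl4 hepatocytes, endothelial, T and NK and mesothelial cells had 10.1, 9.64, 8.91 and 6.32 CPM, and B and plasma cells had 0 UMIs, which allows up to 13.4 CPM. The lowest healthy level, that of hepatocytes, rested in part on 2 Ifit-high cells (defined below) with 40 of the 106 UMIs. Without them it was 24.4 CPM, below the mesenchymal and plasmacytoid dendritic cells of the CCl4 library, so the libraries' ranges overlapped. Whether the different gene lists and software versions bear on this gene was not tested.

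**Figure D2:**
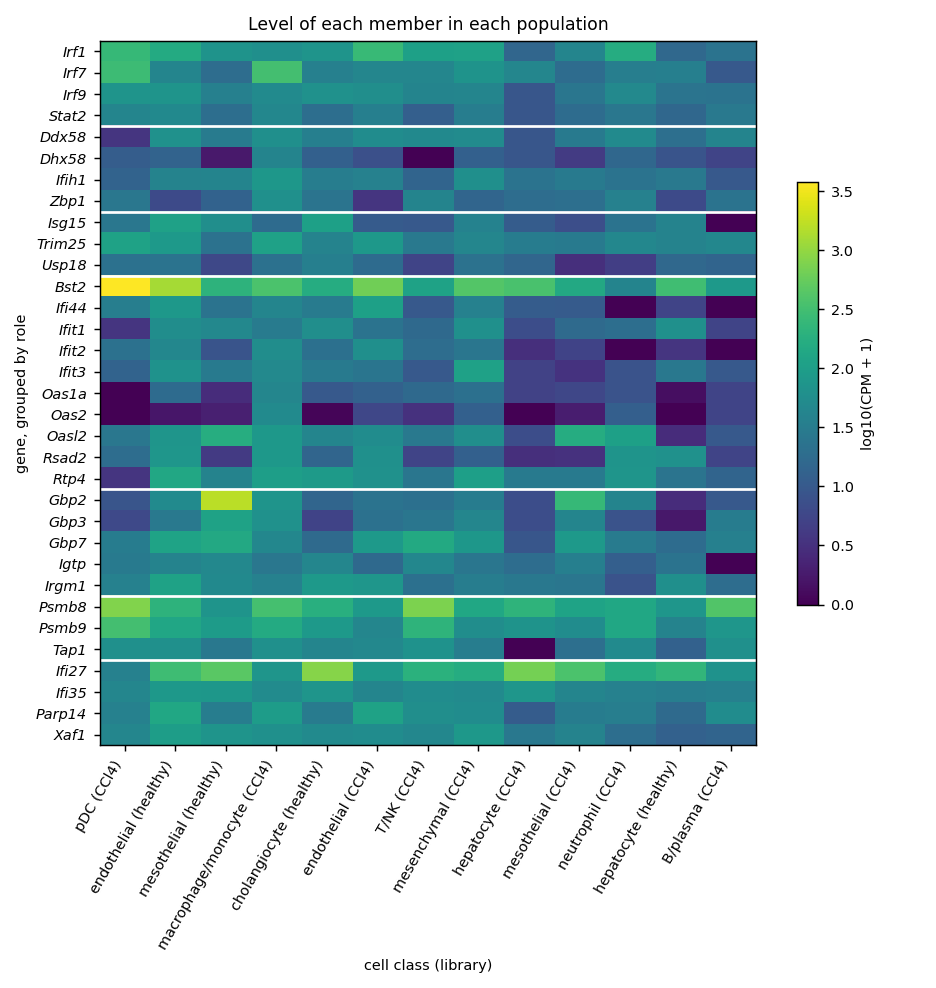
Level of each of the 33 members (rows, grouped by role) in each population (columns, class and library). Colour gives log10(CPM + 1), brighter for higher levels. Bst2 is brightest in plasmacytoid dendritic cells (3806 CPM) and Gbp2 in healthy mesothelial cells (1629 CPM). The Isg15 row is brightest in healthy endothelial cells and cholangiocytes (112 and 107 CPM).

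Endothelial, mesothelial and hepatocyte cells were held by both libraries in numbers that allowed the libraries to be set side by side. In endothelial cells the summed member level was 3798 CPM in the healthy and 2329 CPM in the CCl4 library, a ratio of 0.613 [0.601, 0.626]. By a 2-fold limit and a minimum level of 10 UMIs in the smaller total, 10 of 33 members were lower and 1 was higher, against 15.8% lower and 6.86% higher over 11329 genes. The members' median log2 ratio was -0.50, beside -0.28 over all these genes. Of the 32 members over the minimum level in both libraries 10 were lower and 0 higher, against 11.3% and 3.67% of 10054 genes.

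Isg15 moved furthest in endothelial cells, from 112 to 9.64 CPM, a ratio of 0.0863 [0.0618, 0.117]. Ifi27 went from 293 to 84.9 CPM, a ratio of 0.289 [0.26, 0.322]. Psmb9 went from 132 to 43.3 CPM (0.327 [0.28, 0.38]). These 3 members come from different role groups, and the antigen processing group as a whole had 2 of 3 members lower.

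Ifit3 and Ifit1 had ratios of 0.359 [0.29, 0.44] and 0.39 [0.313, 0.482]. Igtp, Psmb8, Gbp2, Rtp4 and Zbp1 were the other members past the limit, between 0.393 and 0.488. Bst2 lay just inside it, with 1237 against 641 CPM and a ratio of 0.519 [0.498, 0.54]. Among all 33 the effector Oas2 alone was called higher, from 0.644 to 4.70 CPM on 13 and 20 UMIs, a ratio of 7.3 [3.46, 16]. It passed the minimum level of 2.35 CPM through the CCl4 library alone. Irf1 (1.67 [1.55, 1.79]), Ifi44 (1.35 [1.22, 1.5]), Ifit2 (1.33 [1.15, 1.54]) and Irf7 (1.05 [0.889, 1.23]) were not past the limit. Scaling by trimmed mean of M-values (TMM) gave a ratio of 0.708 for the sum and left Rtp4, Zbp1 and Gbp2 inside the limit. Without the 49 and 2 cells that were high in Ifit genes the ratio was 0.633, Ifit1 stood at 0.504 and Zbp1 at 0.526.

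Different clusters held the endothelial class in each library. The healthy cells were mostly 3 clusters led by Wnt2 and Clec1b, by Msr1 and Ntn4, and by Ushbp1 and Ccm2l, whereas 531 of 638 CCl4 cells were 1 cluster led by Esm1 and Erg. The mesenchymal marker list (19 of 19 detected in both) stood at 46.2 CPM in the healthy and 1020 CPM in the CCl4 endothelial cells. Hepatocyte markers stood at 1451 and 85.8 CPM, cholangiocyte markers at 262 and 7.52 CPM, and the class's own endothelial markers at 33964 and 20705 CPM. The part of these lists in the result was not tested. A cluster led by Wnt9b and Selp, genes of the veins, was present in both, with 165 and 78 cells. There the summed ratio was 0.63 [0.593, 0.668], with 9 of 29 members lower and 2 higher, against 14.9% lower and 7.07% higher over 8435 genes. Of the 27 members over the minimum level in both libraries there 8 were lower and 2 higher, against 8.86% and 3.74% of 6838 genes. Isg15 again had the lowest ratio, 0.123 [0.0517, 0.25], but passed the minimum level there through the healthy library alone. Irf1 and Ifit2 were the members called higher, at 2.25 [1.79, 2.83] and 2.11 [1.12, 4.0].

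In mesothelial cells the sum went from 3650 CPM in 237 healthy cells to 1695 CPM in 887 CCl4 cells, a ratio of 0.464 [0.455, 0.474]. Of 32 members past the minimum level 7 were lower and 2 higher, against 13.4% lower and 11% higher over 11596 genes. The median log2 ratio was -0.49 for the members and -0.06 for all genes. Of the 27 members over the minimum level in both libraries 5 were lower and 0 higher, against 10.2% and 6.26% of 10240 genes. Gbp2 carried most of the difference in the sum, going from 1629 to 251 CPM, a ratio of 0.154 [0.148, 0.16]. Gbp2b, with which its reads may have been split, was among the leading genes of the CCl4 mesothelial cluster and not of the healthy one. The part of such splitting, or of the different software versions and gene lists, in this ratio was not tested.

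Ifit3 had the lowest mesothelial ratio, 0.0818 [0.0551, 0.119], on a change from 29.3 to 2.40 CPM. It passed the minimum level of 2.6 CPM through the healthy library alone, as did Usp18. Isg15 went from 58.7 to 6.32 CPM, a ratio of 0.108 [0.0842, 0.137]. Ifit1 (0.356 [0.293, 0.433]), Gbp3 (0.363 [0.321, 0.41]), Usp18 and Ifi44 were the other members called lower. So the called members were effectors, GTPases and the ISG15 system, while all 4 transcription factors stayed inside the limit.

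Oas1a was called higher at 2.68 [1.24, 6.88] on 7 and 77 UMIs, and Dhx58 at 4.05 [1.31, 20.3] on 3 and 50 UMIs. Both passed the minimum level through the CCl4 library alone. Psmb8 (1.65 [1.45, 1.88]), Zbp1 (1.55 [1.14, 2.14]) and Trim25 (1.31 [1.04, 1.68]) were not past the limit. Each library's mesothelial cells were their own cluster, led by Slc26a3 and Myl7 in the healthy and by Adra2a and Cemip in the CCl4 library, so cluster and library cannot be told apart. The mesothelial marker list had 10329 CPM in the healthy and 4605 CPM in the CCl4 cells, with 10 of 10 markers detected in both. Endothelial markers went from 1543 to 403 CPM, cholangiocyte markers from 2515 to 931 CPM and hepatocyte markers from 541 to 37.9 CPM, and their part in the result was not tested.

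In hepatocytes the sum was 1235 CPM in 327 healthy cells and 1745 CPM in 329 CCl4 cells, a ratio of 1.41 [1.31, 1.52]. The sum hid movements in both directions. Of 17 members past the minimum level 6 were lower and 4 higher, against 22.7% lower and 20.4% higher over 4956 genes, and the median log2 ratio was -0.28 for the members and 0.18 for all genes. The share of members called higher was thus near the background. Only 10 members were over the minimum level in both libraries, and of these 3 were higher and 1 lower, against 16.4% and 12.4% of 3236 genes.

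Rsad2, or viperin, which makes a chain-terminating nucleotide, went from 173 UMIs (62.8 CPM) to 1 UMI (2.03 CPM), a ratio of 0.0323 [0.000814, 0.182]. Ifit1 went from 168 to 3 UMIs, 0.0998 [0.0204, 0.297], and Ifit3 from 73 to 2 UMIs, 0.153 [0.0182, 0.573]. Isg15 (0.264 [0.0839, 0.635]) and Irf9 (0.361 [0.0953, 0.971]) rested on 5 and 4 UMIs in the CCl4 cells. All of these members passed the minimum level through the healthy library alone. The ratios of Rsad2, Ifit1 and Ifit3 rested on single cells. One healthy hepatocyte held 163 of the 173 Rsad2 UMIs, and 1 cell held 130 of 168 for Ifit1 and 46 of 73 for Ifit3. Without the 2 healthy hepatocytes that were high in Ifit genes (defined below) the ratios were 0.61 for Rsad2, 0.515 for Ifit1 and 0.999 for Ifit3, none past the limit. Then 3 members in place of 6 were called lower, Isg15 at 0.416, Irf9 at 0.360 and Irgm1 at 0.489, and the sum had a ratio of 1.65. This alternative was added after the data were seen, and the cells were chosen by the Ifit genes themselves.

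Ifi27 had the highest hepatocyte ratio, from 226 to 686 CPM, 3.03 [2.65, 3.47]. Psmb8 went from 74.4 to 215 CPM, a ratio of 2.89 [2.26, 3.67]. Ifi35 (2.25 [1.49, 3.33]) and Xaf1 (2.2 [1.06, 4.3]) were also called higher, but with TMM scaling at 1.96 and 1.92 they were not. Xaf1 passed the minimum level of 20.3 CPM through the CCl4 library alone, on 13 UMIs there. Psmb9 at 1.79 [1.18, 2.66] was not past the limit. The opposite signs of Ifi27 and Psmb8 in hepatocytes and endothelial cells were not tested against each other.

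The CCl4 hepatocytes were shallow, with a median of 893 UMIs against 2839 in the healthy ones, and they were a separate cluster. Their hepatocyte marker list stood at 29078 CPM against 78502 CPM, with 14 of 14 markers detected in both. The mesenchymal list stood at 2465 CPM (19 of 19 detected) against 12 CPM (9 of 19 detected). Other classes of the same library lay on both sides of these hepatocytes for Psmb8. It stood at 137 CPM in mesenchymal, 746 CPM in T and NK and 795 CPM in plasmacytoid dendritic cells. Ifi27 stood at 165, 192 and 36.0 CPM in these classes. The part of these lists in the hepatocyte result was not tested. With every cell weighing the same the ratio of the sums was 1.07, and without Bst2, Ifi27, Psmb8 and Gbp2 it was 0.769, so the direction of the hepatocyte sum rested on those members.

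Isg15, Ifit1 and Ifit3 were called lower in all 3 classes, out of 17 members measured in all 3, against 2.61% of 4438 genes. None was called higher in all 3, against 1.83% of genes. In hepatocytes these 3 members passed the minimum level through the healthy library alone, and in mesothelial cells Ifit3 did so too. Without the Ifit-high cells Isg15 alone stayed called lower in all 3 classes. Its hepatocyte call then rested on 66 healthy and 5 CCl4 UMIs, at 24.4 against 10.1 CPM, again over the minimum level in the healthy library alone. Ifit1 then stood at 0.504 in endothelial cells and 0.515 in hepatocytes, and Ifit3 at 0.999 in hepatocytes. The same 3 members carry ISRE matches in the promoters printed above, as do Rsad2, Bst2 and Gbp2, which were not called lower in all 3 classes.

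**Figure D3:**
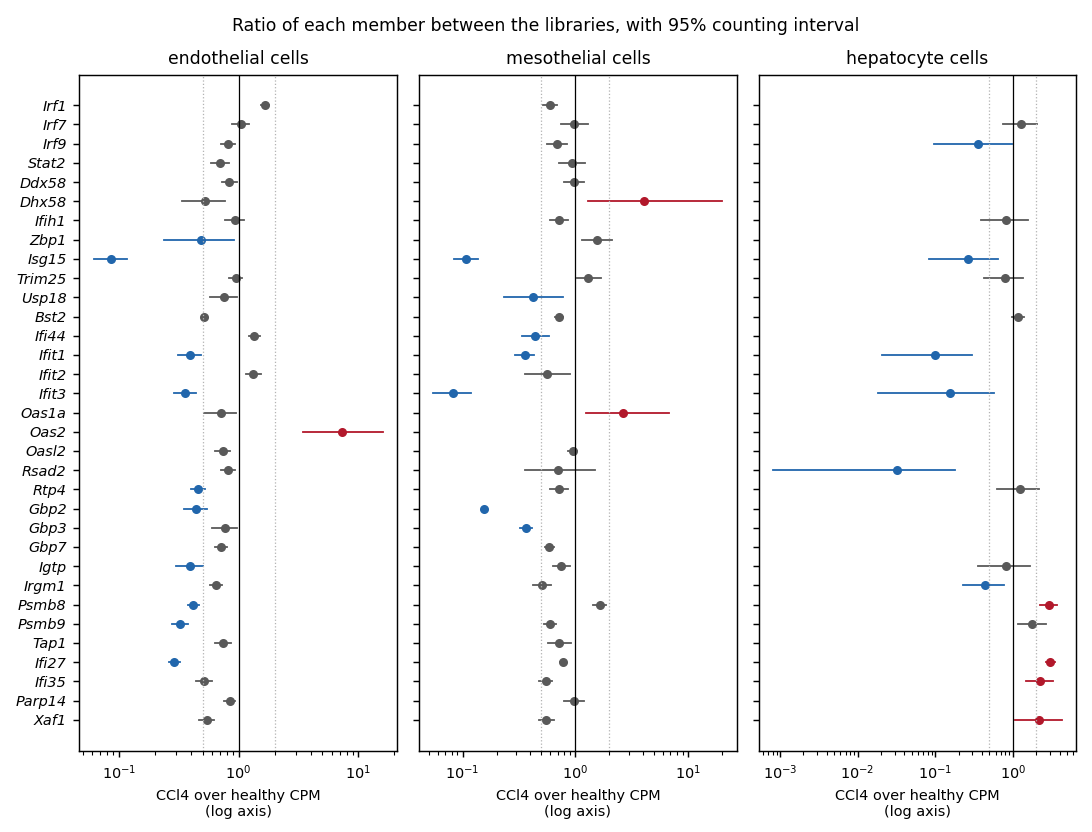
CCl4 over healthy ratio of each member past the minimum level (horizontal log axis) in endothelial, mesothelial and hepatocyte cells, 1 panel each, with the 95% counting interval as a bar and lines at 2-fold in each direction. Isg15, Ifit1 and Ifit3 lie left of the lower line in all panels, Ifit1 and Ifit3 in hepatocytes through 2 healthy cells, and Ifi27 and Psmb8 lie on opposite sides in endothelial cells (0.289 and 0.419) and hepatocytes (3.03 and 2.89).

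Within the CCl4 library 2 mesenchymal clusters differed in member level. One of 1567 cells was led by Bco1 and Angptl6 and the other of 1339 cells by Thbs4 and Mfap4. Lrat, the retinol-storing enzyme that marks stellate cells, stood at 459 CPM in the first and 101 CPM in the second, while Acta2 (759 and 695 CPM) and Col1a1 (4379 and 4240 CPM), genes of the activated state, were close. The member sum was 2552 CPM [2531, 2572] in the Bco1 and Angptl6 cluster and 1601 CPM [1583, 1620] in the Thbs4 and Mfap4 cluster, a ratio of 1.59 [1.57, 1.62]. In the first, 9 of 33 members were over 2-fold higher and 0 lower, against 4.6% higher and 10.4% lower over 13272 genes, with a median log2 ratio of 0.76 for the members and -0.11 for all genes. All 33 were over the minimum level in both clusters, and of the 12328 genes that were, 3.52% were higher and 6.9% lower. Cells of 1 library are not replicates, so no test was run on this difference.

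Zbp1 had the highest ratio, 21.3 against 4.33 CPM or 4.93 [3.89, 6.31]. Ifit3 had 165 against 47.3 CPM, a ratio of 3.48 [3.24, 3.75]. Oas2 (3.14 [2.52, 3.96]), Isg15 (2.78 [2.48, 3.13]) and Irf7 (2.38 [2.19, 2.59]) followed. Psmb9, Psmb8, Ifit1 and Ifi44 were the remaining members past the limit, so effectors, sensors, antigen processing and Irf7 were all represented.

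Irf9 (0.937 [0.851, 1.03]), Irf1 (0.983 [0.926, 1.04]), Trim25 (0.998 [0.908, 1.1]), Ifi27 (1.01 [0.959, 1.05]) and Ifit2 (1.06 [0.931, 1.2]) had the lowest ratios. Ifit1 and Ifit2, which lie in 1 gene cluster, thus differed in their ratios, 2.12 and 1.06. With TMM scaling 14 members were past the limit, Oas1a, Rsad2, Usp18, Rtp4 and Gbp2 being added. Endothelial markers stood at 1115 CPM in the first cluster and 643 CPM in the second, macrophage and monocyte markers at 44.1 and 44.0 CPM, and Ptprc, which encodes CD45, at 0.438 and 0.264 CPM.

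Pathway genes outside the member list also differed between these clusters. Of 69 pathway genes 56 were past the minimum level, and 8 were higher and 1 lower in the Bco1 and Angptl6 cluster. Over all 13272 genes 4.6% were higher and 10.4% lower. Ifitm1, which blocks virus entry, had 1172 against 165 CPM (7.12 [6.86, 7.39]). Cxcl10, a T-cell attracting chemokine, had a ratio of 3.18 [2.9, 3.5], and the MHC class I genes H2-D1 and H2-K1 had 2.59 [2.55, 2.62] and 2.43 [2.38, 2.48], with reads of these near-identical copies uncertain.

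A small share of the cells carried the inducible members at far higher levels than the rest of their class. Cells were called Ifit-high when Ifit1, Ifit2 and Ifit3 together reached 1500 CPM with at least 3 UMIs, among cells of at least 2000 UMIs, and only the other 30 members were then read. The limit was applied at each cell's own depth, so 3 UMIs sufficed at 2000 UMIs and deeper cells needed more. Median depth of the other cells was 6516 UMIs in healthy endothelial, 7068 in CCl4 endothelial and 17175 in CCl4 mesothelial cells, so the shares are not at 1 fixed depth. Of 2981 healthy endothelial cells 49 were Ifit-high (1.64% [1.22, 2.17]). Of 1352 cholangiocytes 8 were (0.592% [0.256, 1.16]), of 198 healthy hepatocytes 2, and of 3002 CCl4 mesenchymal cells 37 (1.23% [0.869, 1.69]). In the CCl4 library 2 of 561 endothelial cells were Ifit-high (0.357% [0.0432, 1.28]), 2 of 118 macrophages and monocytes, and 0 of 884 mesothelial cells, which allows up to 0.339%. Within the mesenchymal cells they were 29 of 1563 in the Bco1 and Angptl6 cluster (1.86% [1.25, 2.65]) and 7 of 1332 in the Thbs4 and Mfap4 cluster (0.526% [0.212, 1.08]). In healthy liver they occurred in each of 5 endothelial clusters, at 1.07% to 2.54%.

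In the 49 Ifit-high endothelial cells the other 30 members summed to 10370 CPM against 3560 CPM in the remaining 2932 cells, a ratio of 2.91 [2.81, 3.02], at median depths of 6177 and 6516 UMIs. Of 28 members past the minimum level 21 were over 2-fold higher and 0 lower, against 2.8% higher and 1.95% lower over 5542 genes, the Ifit genes left out. Oas1a, Usp18, Dhx58 and Gbp3 passed that level through the Ifit-high cells alone, and of the 24 members over it in the other cells 17 were higher and 0 lower, against 1.45% and 2.09% of 5175 genes. Rsad2 had the highest ratio at 16.7 [14.7, 18.9], from 61.6 to 1028 CPM, and was detected in 40 of the 49 cells. Usp18, the protease that removes ISG15 and damps the receptor, had 13.5 [10.4, 17.3], and Isg15 had 12.5 [11.1, 14.0]. All 5 GTPases were higher, between 3.2 and 6.56.

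Some abundant members differed by less than 2-fold in these cells. Bst2 had a ratio of 1.48 [1.36, 1.61], Psmb8 of 1.79 [1.47, 2.15] and Ifi27 of 0.972 [0.778, 1.2]. Among pathway genes 20 of 46 were higher and 0 lower, against 2.8% higher and 1.95% lower over 5542 genes. Cmpk2, the neighbour of Rsad2, had 13.3 [10.4, 17.0] and Cxcl10 6.46 [5.89, 7.08]. The receptor genes Ifnar1, Ifnar2, Ifngr1, Ifngr2 and Il10rb ran from 0.851 to 1.15, with intervals that included 1. Endothelial markers were at 32041 against 34210 CPM and macrophage and monocyte markers at 32.6 against 46.1 CPM, so these cells carried the class's own markers at nearly the level of the others.

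In the 8 Ifit-high cholangiocytes the other 30 members summed to 13341 CPM against 2238 CPM in the remaining cells. Rsad2 had 1702 against 4.85 CPM, a ratio of 351 [269, 459], and was found in 7 of the 8 cells. Isg15 had 2354 against 95.3 CPM (24.7 [21.4, 28.4]). Cxcl10 had 2599 against 9.26 CPM, but in only 2 of the 8 cells. Ifi27, the leading member of the class, had 948 against 865 CPM, a ratio of 1.1 [0.884, 1.34]. Cholangiocyte markers were at 30228 against 33800 CPM.

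In the 37 Ifit-high mesenchymal cells of the CCl4 library Rsad2 had 249 against 8.45 CPM, a ratio of 29.4 [24.1, 35.9]. Usp18 had 10.1 [8.17, 12.4] and Isg15 5.93 [4.88, 7.15]. Ifi27 again did not differ by 2-fold (0.84 [0.663, 1.05]). Isg15 reached 211 CPM there beside 1640 CPM of Ifit3, whereas in Ifit-high endothelial cells of the healthy library it reached 1191 CPM beside 1054 CPM of Ifit3. Ifit3 was used to choose the cells, so these are given as levels only.

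**Figure D4:**
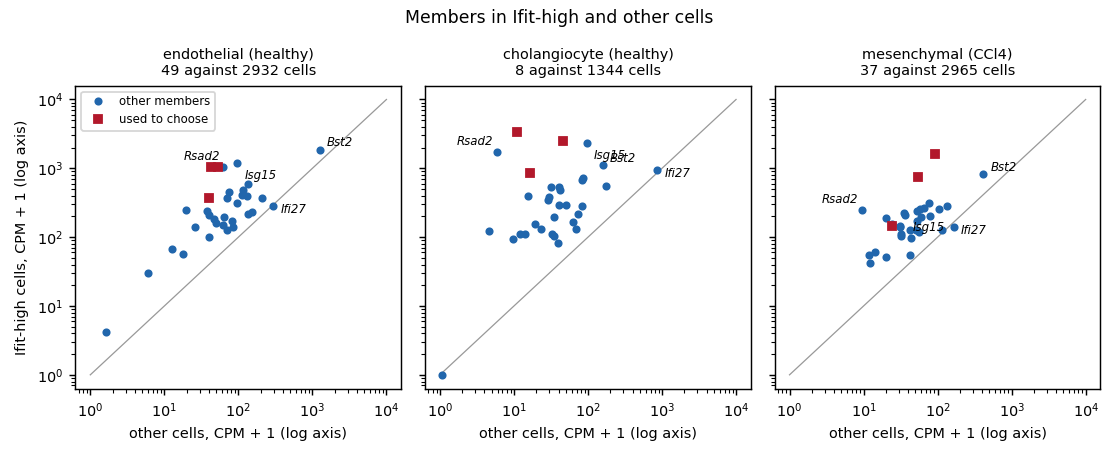
Level of each member in Ifit-high cells (vertical log axis, CPM + 1) against the other cells of the class (horizontal log axis, CPM + 1) for healthy endothelial cells, healthy cholangiocytes and CCl4 mesenchymal cells. Most members lie above the diagonal, Rsad2, Usp18 and Isg15 among the furthest, while Ifi27 lies close to it in all panels; the Ifit genes, marked apart, chose the cells.

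The spread over all cells was also described, with no cells chosen. The genes used include Ifit1, Ifit2 and Ifit3 and the Ifit-high cells stay in, so this is not separate support. Mean thinned counts ran from 0.105 in B and plasma cells to 1.36 in healthy endothelial cells. The values below were not adjusted for the mean, so they do not rank the populations by unevenness. For 11 inducible members (Ifit1, Ifit2, Ifit3, Oas1a, Oas2, Oasl2, Rsad2, Rtp4, Ifi44, Isg15 and Usp18) the variance over the mean of the count per cell, thinned to 2000 UMIs, was 8.25 in cholangiocytes, 8.14 in healthy hepatocytes and 4.63 in healthy endothelial cells. In the CCl4 library it was 3.74 in macrophages and monocytes, 3.57 in plasmacytoid dendritic, 2.5 in mesenchymal, 1.64 in endothelial and 1.26 in mesothelial cells. Neutrophils had 1.7, T and NK cells 1.4, B and plasma cells 1.38 and CCl4 hepatocytes 0.993. Healthy mesothelial cells had 1.92, where a value of 1 is what counting alone gives. The share of cells with at least 8 such UMIs was 2.35% [1.84, 2.96] in healthy endothelial cells and 0.201% [0.00733, 1.03] in CCl4 endothelial cells. It was 0.959% [0.511, 1.64] in cholangiocytes and 0.598% [0.355, 0.945] in mesenchymal cells, and 1.79% [0.237, 6.14] in macrophages and monocytes. In the extreme cholangiocyte 376 of 11885 UMIs came from these 11 members. In the extreme healthy hepatocyte 386 of 43101 UMIs did, and that class had only 198 cells of this depth. Cells of 1 library are not replicates, and the 2 endothelial populations lie mostly in different clusters, so no difference between conditions was read from these shares.

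**Figure D5:**
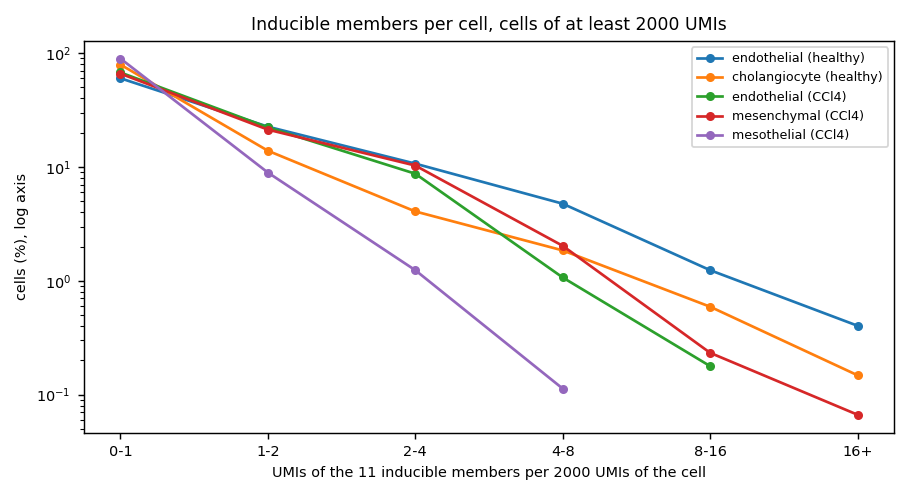
Share of cells (vertical log axis, %) by the number of UMIs of the 11 inducible members per 2000 UMIs of the cell (horizontal axis, bins), for cells of at least 2000 UMIs in 5 populations, healthy endothelial cells and cholangiocytes and CCl4 endothelial, mesenchymal and mesothelial cells. Of these 5, healthy endothelial cells have the largest shares in the last 2 bins, from 8 UMIs upward (1.24% and 0.403%), while CCl4 endothelial cells have 0.178% and 0.

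Interferon transcripts themselves were scarce. Of 11 interferon genes on both lists 7 had 0 UMIs in all kept cells, Ifnb1 had 1 UMI and Ifnk had 1 in each library. Ifng had 4 UMIs in the healthy and 217 in the CCl4 library, 202 of the latter in T and NK cells (450 CPM [390, 516]) and 7 in plasmacytoid dendritic cells. Ifnz had 5 UMIs, all in the CCl4 library. A count this low does not show absence at this depth.

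The receptor genes were detected in the 13 populations with few exceptions. Ifnar2, a chain of the type I receptor, ran from 40.1 CPM in B and plasma cells to 381 CPM in plasmacytoid dendritic cells. Ifnar1, its other chain, ran from 12 CPM in healthy hepatocytes to 160.0 CPM in plasmacytoid dendritic cells. Both hepatocyte populations were among the 3 lowest for each chain, and plasmacytoid dendritic cells were the highest.

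Ifngr1, the ligand-binding chain for interferon-γ, was highest in T and NK cells (332 CPM) and in macrophages and monocytes (329 CPM) and lowest in CCl4 hepatocytes (6.09 CPM). Ifngr2 ran from 2.23 CPM in T and NK cells to 128 CPM in macrophages and monocytes. Ifnlr1, specific to type III interferon, was at 0 UMIs in 7 populations and had 7.97 CPM in cholangiocytes and 18.4 CPM in neutrophils. Il10rb, the chain it shares with interleukin-10, was 132 CPM in healthy and 44.9 CPM in CCl4 endothelial cells, a ratio of 0.34 [0.292, 0.394].

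Pathway genes other than the members were set side by side between the libraries in the same way. In endothelial cells 4 of 54 were higher and 9 lower in the CCl4 library, near the 6.86% and 15.8% of all genes. Cxcl9, an interferon-γ-induced chemokine, had 335 against 75.6 CPM (4.43 [4.12, 4.76]) and Irf8 2.34 [2.16, 2.54], whereas H2-D1 had 0.358 [0.349, 0.368] and H2-K1 0.43 [0.417, 0.444]. In mesothelial cells 7 of 52 were higher and 6 lower, also near the 11% and 13.4% of all genes, with Ifi204 at 20.9 [14.8, 30.6], Ifi203 at 11.2 [8.18, 15.8] and Cxcl10 at 7.88 [6.19, 10.2]. Ifi204 and Ifi203 are DNA-binding members of 1 gene family whose reads may be split between copies. In hepatocytes 3 of 26 were higher and 11 lower, against 20.4% and 22.7% of all genes, among the latter H2-K1 (0.222 [0.183, 0.268]) and B2m (0.355 [0.319, 0.393]), the heavy and light chains of MHC class I. The hepatocyte counts of both directions came from the same shallow cells as above.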

How the data were processed

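Liver cells of 1 healthy and 1 CCl4 mouse group were measured by droplet 3′ RNA sequencing (10x Genomics, version 2 protocol per the labels), 1 library each. The deposited matrices hold counts, whole numbers of UMIs per gene and cell, made per the file headers by Cell Ranger 3.1.0 (healthy) and 6.0.1 (CCl4) and deposited by the authors for 6297 and 8460 cells with 51122846 and 97611831 UMIs, none under 500 UMIs per cell. The submitters' processing notes list mm10 and GRCh38, fastp and featureCounts without roles. The study's methods name a human build, but all gene identifiers were mouse.

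Genes were matched by Ensembl identifier. Cells with at least 500 UMIs, 200 genes and at most 30% mitochondrial UMIs were kept and predicted doublets removed (Scrublet, 0.8% per 1000 cells), leaving 5602 and 7314. Both libraries were clustered together (Scanpy 1.11.5, Python 3.11.15; 2000 variable genes without members, pathway, mitochondrial, ribosomal and sex-linked genes, 30 components, 20 neighbours, Leiden resolution 1) and named from marker lists. The 5 clusters without a name were left out of the classes. Levels are summed UMIs in counts-per-million units (CPM) with exact Poisson intervals, shares have exact binomial (Clopper-Pearson) intervals, and ratios have exact conditional binomial intervals, all at 95% and for counting error only; a count of 0 was bounded by 3 counts. A gene entered a comparison when its higher CPM exceeded that of 10 UMIs in the smaller total, and counted as higher or lower beyond 2-fold, with counts under 3 raised to 3 for that call. With 1 library per group no p-value was computed. Thinning to 2000 UMIs used expected values over all thinnings. TMM factors came from edgeR 4.0.16 (R 4.3.3). The ratio and thinning code was tested on simulated data. No batch other than the library was known, and condition and library cannot be told apart.

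The members and all lists were chosen with earlier results of these data known. Named with values were the 10 members with the most UMIs, the leading member of each population, the 5 highest and 5 lowest ratios of each comparison, the receptors and any interferon with at least 3 UMIs; 1 pathway gene that this rule names is not reported here; other genes were named after their values were seen. The 11 inducible members, the Ifit-high limit and the mesenchymal and vein cluster comparisons were chosen after the data were seen. Alternatives were other filters, clustering, thinning depths and scalings, and leaving out leading members or cells.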

Additional observations from a re-analysis of the deposited data

Results flagged for a closer look

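Ifi27 and Psmb8 lay on opposite sides of the 2-fold limit in 2 cell classes compared between the same libraries. The CCl4 over healthy ratio of Ifi27 was 0.289 in endothelial cells and 3.03 in hepatocytes, and that of Psmb8 was 0.419 in endothelial cells and 2.89 in hepatocytes. The summed members had ratios of 0.613 in endothelial cells, 0.464 in mesothelial cells and 1.41 in hepatocytes. With 1 library per condition none of these differences was tested. The CCl4 hepatocytes had a median of 893 UMIs, and the hepatocyte sum had a ratio of 0.769 without Bst2, Ifi27, Psmb8 and Gbp2.

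Mx1, a member on the healthy library's gene list alone, entered no comparison. It had 55 UMIs in 15 kept healthy cells, 44 of them in 7 Ifit-high cells and 31 in 5 cholangiocytes. There was no control level for it, and its count is above the limit of 3 UMIs that a count of 0 allows.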

How the results depend on the processing

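No paired analysis was possible because each condition had 1 library and no result came from a test. Leaving out a replicate was not possible for the same reason. The healthy endothelial level of 3798 CPM was 3694 with 10 components, 3847 with a mitochondrial limit of 10%, 3733 with none, 3832 with at least 2000 UMIs per cell, 3623 with every cell weighing the same, 2561 without Bst2 and 3659 without the Ifit-high cells, and the CCl4 endothelial level of 2329 CPM was 2281 with 10 components and 1688 without Bst2. The plasmacytoid dendritic level of 6220 CPM was 5609 without doublet removal and 2414 without Bst2, below the healthy mesothelial (3445) and endothelial cells on that count, and with 10 components no such class was found. The B and plasma level of 1160 CPM was 4369 with 10 components and 1351 without doublet removal. Shares of endothelial cells with a member UMI were 94.4% (healthy) and 86.3% (CCl4) at 1000 UMIs, 100% and 99.9% at 5000, and 98.4% in the healthy library unthinned.

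The endothelial ratio of 0.613 was 0.639 with every cell weighing the same, 0.659 without Bst2, 0.708 with TMM, 0.707 with totals that left out the 50 most abundant genes, 0.743 without Bst2, Ifi27, Psmb8 and Gbp2, 0.633 without Ifit-high cells and 0.63 in the Wnt9b and Selp cluster. The mesothelial ratio of 0.464 was 0.45 without Bst2, 0.498 with TMM, 0.484 without the 50 genes and 0.64 without the 4 members. The hepatocyte ratio of 1.41 was 1.67 with no mitochondrial limit, 1.65 with at least 2000 UMIs, 1.07 with every cell weighing the same, 1.23 with TMM, 1.25 without the 50 genes, 1.65 without Ifit-high cells and, turning its direction, 0.769 without the 4 members. The mesenchymal ratio of 1.59 was 1.71 with TMM, 1.63 without the 4 members and 1.55 without Ifit-high cells. Members called higher in hepatocytes went from 4 to 2 with TMM and without the 50 genes, members called lower there from 6 to 3 without Ifit-high cells, and members called higher in the Bco1 and Angptl6 cluster from 9 to 14 with TMM. TMM moved log2 ratios by 0.21 in endothelial, 0.1 in mesothelial, -0.2 in hepatocyte and 0.1 in mesenchymal comparisons. Of 345 single-member ratios recomputed none changed direction among called members, 17 lost and 6 gained the 2-fold call. The cause was not tested, beyond what leaving out cells or members shows by construction. The alternatives without the 4 members, without Ifit-high cells, with the vein cluster alone and without the shallow endothelial cluster were chosen after seeing the data. Not run for want of cells were healthy hepatocytes at the 10% mitochondrial limit (6 cells), neutrophils at 2000 UMIs (49 cells) and the 5000 UMI depth for CCl4 hepatocytes, B cells and neutrophils. Depth limits most the CCl4 hepatocytes, where 17 of 33 members passed the minimum level.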

Other observations

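Genes outside the member and pathway lists were ranked by the Pearson correlation of their log2(CPM + 10) with that of the member sum over 13 populations, among 7410 genes. The 10 most alike were Slc25a12 (0.89), Commd7 (0.88), Trmt2a (0.88), Lrrc47 (0.87), Fam174a (0.87), Nsmce2 (0.87), Orai3 (0.86), Srsf4 (0.83), Ostm1 (0.83) and Nptn (0.83). Of these 9 were highest in plasmacytoid dendritic cells, with Fam174a at 237 CPM there, and Nptn was highest in healthy endothelial cells at 210.0 CPM. The populations share 2 libraries and differ in depth, so the values are a description.

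Clusters that the markers left without a name also carried the members. In the CCl4 library a cluster of 658 cells led by Serpinb2 and Enpp2 had 1892 CPM [1869, 1915], and 1 of its 636 cells of at least 2000 UMIs was Ifit-high. A cluster of 222 cells led by the mitotic genes Pimreg and Esco2 had 1890 CPM [1851, 1930], and a cluster of 495 cells led by Carmn and Dnm3os had 1428 CPM [1367, 1490]. These levels lay below that of the CCl4 mesenchymal class, 2137 CPM.

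Among healthy endothelial clusters the one led by Msr1 and Ntn4 had the highest member level of those over 100 cells, 4336 CPM [4281, 4391], and the one led by Wnt2 and Clec1b had 3621 CPM [3585, 3658]. The vessel cluster led by Gja5 had 4055 CPM [3956, 4155].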
